A study of Mus musculus with 84 samples.

Results

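Tumors that arose in mammary glands of mice with an MMTV-Wnt-1 transgene (WntT, 23 arrays) were compared with hyperplastic glands of the same line (WntH, 7 arrays). These 30 arrays were chosen by their titles from 65 arrays of the study's 15k type, in a series of 84 samples, and were not picked by any measured value. In both groups the promoter of mouse mammary tumor virus (MMTV) drives a Wnt-1 transgene in mammary epithelium, on a mixed background that is mostly FVB with SJL and C57BL/6. WntT mice were 9 to 56 weeks old and WntH mice 9 weeks old, so age and group cannot be told apart. Age-matched mammary glands of nontransgenic virgin FVB mice (VMG, 5 arrays, 9 weeks), mammary tumors of FVB mice carrying an MMTV-driven rat Neu cDNA (NeuT, 12 arrays, 32 to 60 weeks) and intestinal fat of virgin FVB mice (Fat, 3 arrays, 12 weeks) served only to classify clones and to place levels. The comparison asks which RNAs accompany the step from hyperplasia to tumor.

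Wnt-1 is a secreted ligand that stabilizes β-catenin, which then activates target genes together with TCF/LEF factors. Expressed in the mammary gland, it makes the whole ductal tree hyperplastic before solitary tumors form, and these tumors hold both luminal and myoepithelial (basal) cells. A hyperplastic gland is still a tree of ducts inside a fat pad with vessels, nerves, a lymph node and often a strip of body wall muscle, whereas a tumor is mostly epithelium.

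Each spot of the array held a cDNA clone, and its value is the log2 ratio of sample RNA to a reference RNA that was the same on every array. Of 15360 clones, 11860 carried a single gene symbol, standing for 7766 genes, and 2822 genes had 2 or more such clones. The array medians lay between -0.07 and 0.02. Pairs of a WntT and a WntH array correlated with a median r of 0.52, against 0.76 for pairs of WntT arrays and 0.82 for pairs of WntH arrays. WntT m42 and m49 had wide spreads (SD of all log2 ratios 1.78 and 1.36). Unless stated otherwise, a difference is the mean log2 ratio of WntT minus that of WntH, genes with several clones are averaged over them, and a clone or gene is called at a limma adjusted p under 0.05.

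RNA known from fat cells was lower in WntT than in WntH. The 40 measured genes of the Adipocyte list averaged -2.19 to -0.94 on the 23 WntT arrays (median -1.45), against 0.06 to 0.41 on the 7 WntH arrays (median 0.29), on the log2 scale of the ratio to the reference. The VMG arrays lay higher still, at 1.11 to 1.72, near the Fat arrays at 1.74 to 1.79. Every WntT array was below every WntH array, and every WntH array was below every VMG array. Of all genes 21.9% were called higher in WntT and 22.2% lower, and beside this background 37 of the 40 Adipocyte genes were lower in WntT and 0 higher, with a median difference of -1.30 (all genes, -0.03).

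Car3, a carbonic anhydrase abundant in fat cells, lay between -6.08 and -1.53 in WntT (median -3.28), against 1.75 to 2.76 in WntH (median 2.44). It was 59.3-fold lower in WntT (log2 difference -5.89, SE 0.42, adjusted p = 1.2e-12), and its level in Fat averaged 5.18. Fabp4, the fatty acid binding protein of adipocytes, lay between -4.34 and -1.15 in WntT (median -2.57), against 1.95 to 2.40 in WntH (median 2.32), and was 28.8-fold lower (log2 difference -4.85, SE 0.34, adjusted p = 6.8e-13). Lpl, which releases fatty acids from circulating lipoproteins, was between -3.06 and -1.84 in WntT (median -2.49), against 0.43 to 1.27 in WntH (median 0.92), a 10.7-fold difference (adjusted p = 2.1e-18). For each of these 3 genes every WntT array was below every WntH array, which held for 378 of 7766 genes (4.87%). Adipoq and Retn, the adipocyte hormones adiponectin and resistin, were 14.2-fold and 25.9-fold lower on 1 clone each. Pparg, the regulator of fat cell formation, was lower with a log2 difference of -1.80 over 3 clones. The 3 uncalled members were Plin1 (-0.15), Pck1 (0.12) and Cebpa (0.12).

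Skeletal muscle RNA was lower as well. The 26 muscle genes averaged -1.29 to 0.19 on WntT arrays (median -0.51), against 1.07 to 1.91 on WntH arrays (median 1.54), and 25 of the 26 were lower in WntT. The order of the other groups differed from that of the Adipocyte list, since the muscle genes averaged 1.37 to 2.10 on VMG arrays but -1.62 to -0.15 on Fat arrays. Tnnc2, the calcium sensor of fast muscle, lay between -1.26 and 0.97 in WntT (median -0.78), against 3.55 to 4.80 in WntH (median 4.23), and was 24.9-fold lower (log2 difference -4.64, SE 0.27, adjusted p = 1.0e-14). Mybpc2, a thick filament protein of fast muscle, was 7.89-fold lower over 3 clones (adjusted p = 3.8e-14), and Mybpc1, its slow muscle relative, 4.45-fold lower over 4 clones (adjusted p = 2.7e-10). Each of these muscle genes was lower on all 23 WntT arrays than on any WntH array. In bulk tissue, fewer cells of a type and less RNA per cell cannot be told apart.

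Epithelial markers moved the other way, and by much less. The 16 Pan-epithelial genes averaged 0.43 to 0.88 in WntT (median 0.68), against 0.10 to 0.56 in WntH (median 0.34), with 20 of 23 WntT arrays above every WntH array. Of these, 10 were higher in WntT and 1, Cldn4, was lower, and the median difference was 0.27. Cdh1, the E-cadherin of epithelial junctions, differed by 0.11 (SE 0.14) and Krt14, the keratin of basal cells, by 0.07 (SE 0.09), and neither was called. Ehf, an epithelial ETS factor, had the largest rise, at 1.01 to 2.24 in WntT (median 1.52), against -0.71 to 0.63 in WntH (median -0.07), or 3.06-fold (adjusted p = 1.2e-09). Krt8, Krt18, Epcam, Krt5, Acta2 and Trp63 had no clone with a single symbol and were not analysed here.

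**Figure D1:**
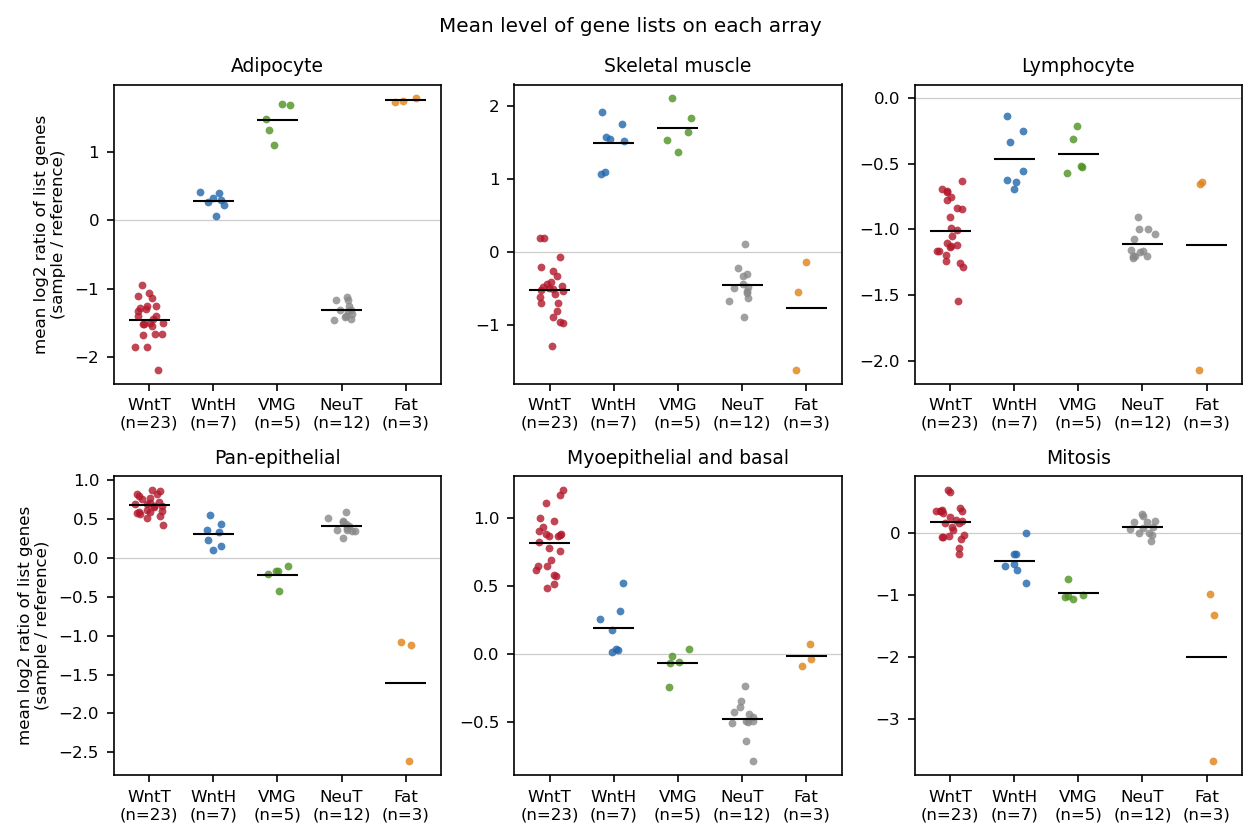
Mean log2 ratio of the measured genes of 6 lists on each array (points) of WntT, WntH, VMG, NeuT and Fat, with the group mean as a line. The WntT points lie below all WntH points for the Adipocyte and Skeletal muscle lists and above most of them for the Pan-epithelial, Myoepithelial and basal and Mitosis lists.

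Fat RNA was therefore kept apart with arrays outside the comparison. A clone was termed fat-rich if it was called and at least 3-fold higher in Fat than in NeuT, which held for 1006 clones (6.55%). Among the Fat arrays m44 stood apart, with a Pan-epithelial mean of -2.62 against -1.08 and -1.12, so the Fat mean of a gene can rest on this array. A small further class, defined after the values were seen, held 40 clones (0.26%) that were at least 3-fold higher in VMG than in both NeuT and Fat, here termed gland-rich. It held many muscle genes, and also Cmya5, Glycam1 and clones of Ms4a1. NeuT tumors lack basal cells, so a basal gene such as Cnn1 counts as fat-rich although its level in Fat was low (mean -0.39). Other genes low in NeuT, such as Ifi203 and Col3a1, also count as fat-rich although they averaged higher in WntH than in Fat.

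Between WntT and WntH, 6411 of 15360 clones were called (41.7%), 3085 higher in WntT (20.1%) and 3326 lower (21.7%). At a 3-fold minimum 85 clones were higher (0.553%) and 287 lower (1.87%). The count of 3-fold higher clones depended on the scaling, at 194 after quantile normalization and 43 with arrays centred on the Pan-epithelial genes, and with the Adipocyte and muscle list means as covariates 1237 clones were higher and 323 lower. Of the 287 lower clones, 207 were fat-rich and 26 gland-rich, which left 54. Every WntT array was above every WntH array for 428 clones (2.79%) and below for 720 clones (4.69%). Of the 85 higher clones, 1 was fat-rich and 84 were in neither class. Among the fat-rich clones 705 of 1006 were lower in WntT and 59 higher, with a median difference of -0.79. Among 14314 clones in neither class 3024 were higher and 2592 lower, and their median difference was -0.02. Over all clones the difference between WntT and WntH correlated with the difference between Fat and NeuT at r = -0.47, a description across clones, which are not independent replicates.

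**Figure D2:**
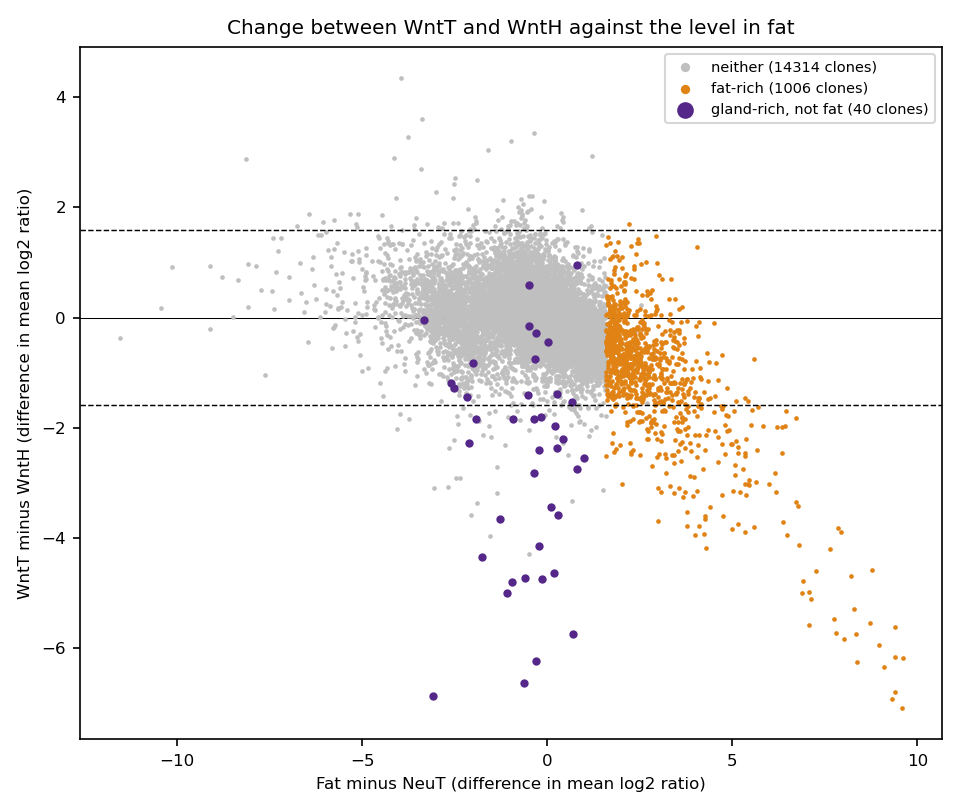
Each point is a clone, with the difference between Fat and NeuT on the x axis and the difference between WntT and WntH on the y axis, both in mean log2 ratio. Dashed lines mark a 3-fold difference; fat-rich clones (orange, 1006) run downward to the right, gland-rich clones (purple, 40) lie mostly below the lower dashed line, and the other 14314 clones (gray) spread about 0.

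The virgin gland placed these changes. For the 207 fat-rich clones that were at least 3-fold lower, the VMG mean was above both WntT and WntH for 194, with a median of 1.05 above WntH. For the 85 clones at least 3-fold higher, the VMG mean lay between WntH and WntT for 50, below both for 34 and above both for 1, and it was nearer to WntT for 13.

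Genes whose clones agreed were taken first. Of the 2822 genes with at least 2 clones, 383 (13.6%) had all clones called in 1 direction, 177 higher in WntT and 206 lower. No clone was called for 850 genes, and for 242 genes clones were called in opposite directions. The differences of the first and second clone of a gene correlated at r = 0.35 across genes. Clones of a gene share the arrays, so they are separate probes and not replicates. Of the 206 lower genes, 88 had a fat-rich clone, 6 were on the muscle list, 4 were gland-rich and 108 were none of these, and of the 177 higher genes 174 were none of these.

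**Figure D3:**
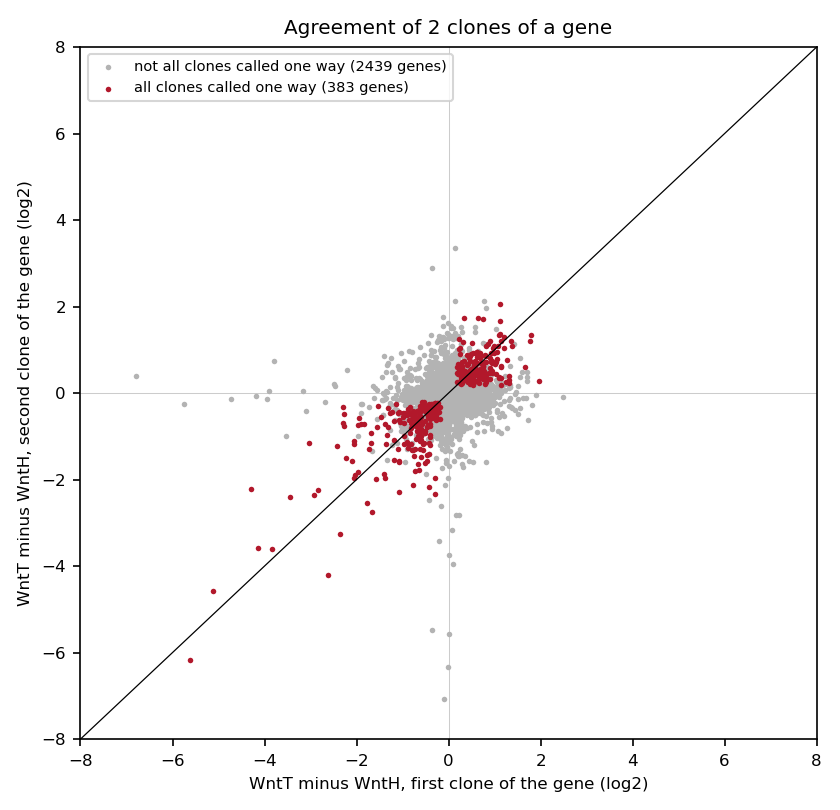
The difference between WntT and WntH on the first clone (x axis) and the second clone (y axis) of each of 2822 genes, in log2 units, with the line of equality. The 383 genes whose clones were all called in 1 direction are red; gray points on an axis far from 0 are genes with a large change on a single clone.

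Among the genes that rose on every clone, outside the fat, caveola and muscle classes, the first by their smallest difference was Cnn2, the actin-binding protein calponin 2. Cnn2 lay between 0.50 and 1.25 in WntT (median 0.83), against -0.95 to -0.41 in WntH (median -0.71). It was 2.98-fold higher (log2 difference 1.58, SE 0.08, adjusted p = 1.3e-15), and its clones gave 3.49-fold and 2.55-fold. All 23 WntT arrays were above all WntH arrays, which held for 254 of 7766 genes (3.27%), and the means of VMG (-0.99), NeuT (-0.84) and Fat (-0.96) were all near that of WntH (-0.70). Prkcsh, the β subunit of the glucosidase that trims glycans in the endoplasmic reticulum, agreed over 4 clones, at 2.15-fold to 3.77-fold. Its values were -0.90 to 0.19 in WntT (median -0.44), against -2.36 to -1.70 in WntH (median -1.92), again without overlap (adjusted p = 2.6e-11). Prkcsh averaged lower in WntH (-1.98) than in VMG (-1.25) and Fat (-0.66).

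Vcan, the large matrix proteoglycan versican, lay between 1.19 and 3.38 in WntT (median 2.49), against 0.29 to 2.00 in WntH (median 1.01), and was 2.63-fold higher (adjusted p = 6.0e-06). Its mean in NeuT was 0.06. Mex3a, an RNA-binding protein, lay between -0.76 and 2.26 in WntT (median 1.73), against -0.23 to 0.61 in WntH (median 0.06), and was 2.80-fold higher (adjusted p = 6.6e-06). A single tumor, WntT m50, was below all WntH arrays for Mex3a, and 21 were above them all. Trim29, a protein of basal and squamous epithelium, lay between 1.58 and 3.44 in WntT (median 2.63), against 0.89 to 2.25 in WntH (median 1.71), and was 2.06-fold higher (adjusted p = 0.00014). It averaged 0.12 in VMG and -0.86 in NeuT. Capn6, a calpain without protease activity, varied most among tumors, at -0.46 to 4.35 (median 1.45), against -0.38 to 0.02 in WntH (median -0.08), with a log2 difference of 1.58 (adjusted p = 0.0016).

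The other leading genes rose by 1.94-fold to 2.42-fold. The paper set a 3-fold minimum for this comparison because tumors hold less stroma, and these rises lie below it. The part of a larger epithelial share of the RNA in these rises was not tested. Hnrnpl and Prpf8 act in splicing, the second as a core protein of the spliceosome, and were 2.38-fold and 2.11-fold higher (adjusted p = 6.3e-13 and 5.9e-08). Thrap3, also tied to RNA processing, was 2.00-fold higher (adjusted p = 7.6e-08). Rcc2, which acts on chromosomes in mitosis, was 2.13-fold higher over 3 clones (adjusted p = 9.2e-11), and Spag5, a protein of the mitotic spindle, 2.42-fold higher (adjusted p = 0.00014). Spag5 averaged -0.10 in WntT and -1.37 in WntH, both far below NeuT at 2.58. Ceacam1, an adhesion protein of epithelium, was 2.18-fold higher (adjusted p = 1.2e-09), Vangl1, a component of planar cell polarity, 1.94-fold (adjusted p = 6.7e-09), Cxxc5, a zinc finger protein, 2.01-fold (adjusted p = 3.1e-10), and Ap1b1, a subunit of a clathrin adaptor, 2.07-fold (adjusted p = 4.6e-10).

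Among genes that fell on every clone, and that neither the fat-rich class nor the muscle, caveola or fat lists removed, the leading members included genes known from muscle and lymphocytes. Cmya5, a muscle protein of the myofibril, lay between -3.31 and 0.41 in WntT (median -0.24), against 2.04 to 2.94 in WntH (median 2.39), with a log2 difference of -2.92 (adjusted p = 2.3e-09). Hjv, a regulator of iron balance made in muscle and liver, was 9.58-fold lower (adjusted p = 2.0e-06), and Cacnb1, a subunit of the muscle calcium channel, 1.67-fold lower (adjusted p = 2.5e-05). Hjv and Cacnb1 averaged -1.88 and -1.47 in Fat, where they varied widely (SD 1.38 and 1.95), and 1.72 and 0.51 in VMG, the same order as the muscle list. Ms4a1, the B cell antigen CD20, was 3.83-fold lower over 3 clones (adjusted p = 0.0023), with values of -7.59 to -1.51 in WntT (median -2.71), against -1.78 to -0.29 in WntH (median -0.996). Cd96, a receptor of T and NK cells, was 1.75-fold lower (adjusted p = 0.0048). Pde4dip, a protein of the Golgi and centrosome that is abundant in muscle, was 4.47-fold lower (adjusted p = 2.2e-06), with a level in VMG of 0.24.

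Regulators of signaling and of the glucocorticoid response were also among the leading falls. Akap12, a scaffold for protein kinase A, lay between -2.64 and -0.70 in WntT (median -1.30), against -0.10 to 0.65 in WntH (median 0.08), and was 2.67-fold lower (adjusted p = 5.6e-08). It averaged 2.30 in NeuT and 2.33 in Fat, so WntT lay below every other group. Tsc22d3, a gene induced by glucocorticoids, lay between -1.35 and 0.16 in WntT (median -0.83), against -0.27 to 1.39 in WntH (median 0.53), and was 2.51-fold lower (adjusted p = 6.3e-07). Nr3c1, the glucocorticoid receptor, lay between -1.87 and -0.60 in WntT (median -1.06), against -0.46 to 0.18 in WntH (median -0.22), and was 1.85-fold lower (adjusted p = 1.4e-06) without overlap. Mid1ip1, which promotes fatty acid synthesis, was 2.09-fold lower (adjusted p = 3.0e-06) and Smoc2, a matrix-associated protein, 2.14-fold lower over 3 clones (adjusted p = 2.7e-05). Ginm1 (1.85-fold), Zfp467 (1.67-fold), Sult5a1 (2.09-fold) and Lipo3 (2.00-fold) completed the 15, with adjusted p-values of 1.9e-11 to 0.0071. Nr3c1 averaged 0.07 in VMG, -0.07 in Fat and -0.86 in NeuT, and Ginm1 1.16, 1.02 and -0.16. Both were higher in VMG and Fat than in WntH (-0.18 and 0.41). Tsc22d3 was not, at 0.34 in VMG and -0.0003 in Fat against 0.55 in WntH. The part of fat and other stromal RNA in these falls was not tested.

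**Figure D4:**
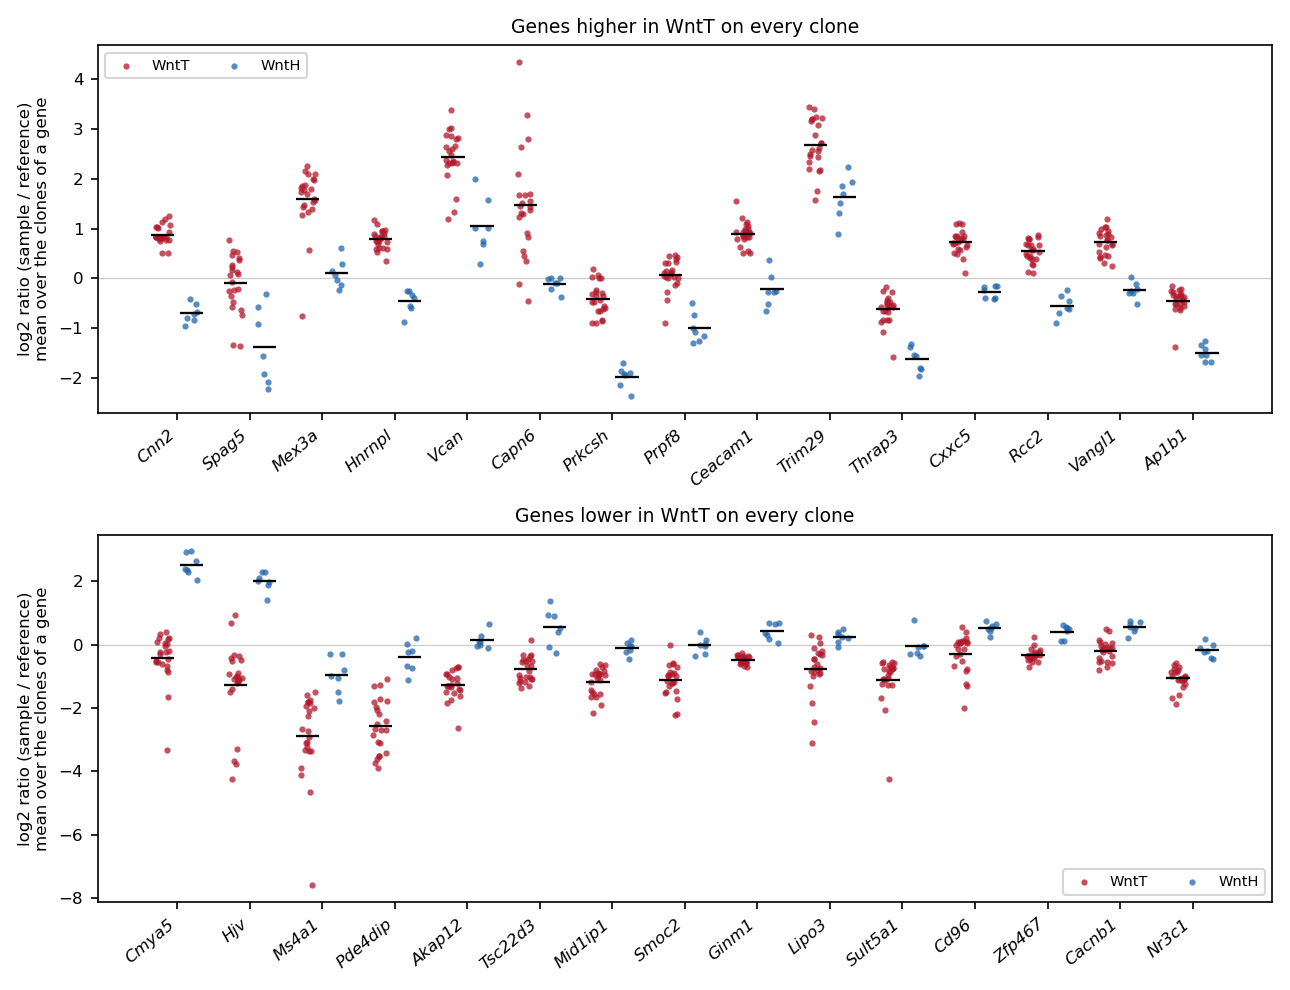
Log2 ratio of sample to reference, averaged over the clones of a gene, on each WntT (red) and WntH (blue) array, with group means as lines, for the 15 genes that lead among those higher (top) and lower (bottom) on every clone. Cnn2, Hnrnpl and Prkcsh do not overlap between the groups, while Capn6 spans -0.46 to 4.35 among WntT arrays.

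The fat-rich genes that agreed were led by Car3, Fabp4, Ces1c, Lpl, Ephx2, Col3a1, Cav1 and Agmo. Cav1, the coat protein of caveolae, was lower on each of 3 clones, by 3.92-fold, 3.56-fold and 5.50-fold. It lay between -1.62 and -0.30 in WntT (median -0.91), against 0.75 to 1.54 in WntH (median 1.27). Its mean was 3.90 in Fat, 2.57 in VMG and -2.59 in NeuT, so WntT stood above NeuT. The other caveola genes Cavin1 (3.19-fold), Cav2 (1.67-fold), Cavin2 and Cavin3 were lower too, 5 of 5 in all. Bnip3, a mitochondrial protein induced by hypoxia, was 3.84-fold lower (adjusted p = 1.0e-06), and it too was fat-rich, with a mean of 2.81 in Fat against 2.22 in VMG. The part of fat RNA in the falls of Cav1 and Bnip3 was not tested.

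The Wnt pathway itself was examined by 2 lists. Of 19 measured genes known as Wnt targets or feedback regulators, 9 were higher in WntT and 3 lower. These shares were 47.4% and 15.8%, against 21.9% and 22.2% of all genes, and the median difference was 0.38. Ccnd1, the cyclin D1 that drives entry into S phase, lay between 1.53 and 3.01 in WntT (median 2.40), against -0.70 to 1.03 in WntH (median -0.27). It was 5.77-fold higher (log2 difference 2.53, SE 0.17, adjusted p = 3.3e-13) without overlap, on 1 clone, and averaged -1.10 in VMG and 1.41 in NeuT. Myc, the growth-promoting transcription factor, was already high in the hyperplastic gland. It lay between 1.72 and 2.81 in WntT (median 2.29), against 1.35 to 2.40 in WntH (median 1.49), a log2 difference of 0.58 (adjusted p = 0.00023), while VMG averaged -0.11. Cd44, a hyaluronan receptor, was 1.99-fold higher (adjusted p = 1.1e-06), and the feedback inhibitors Nkd1 and Rnf43 were 1.72-fold and 1.70-fold higher. Axin2, a standard readout of β-catenin activity, differed by 0.04 (SE 0.19) on 1 clone and was not called. The transcription factor Lef1 was 1.82-fold lower (adjusted p = 0.023), and the inhibitor Apcdd1, a fat-rich clone, 2.80-fold lower (adjusted p = 2.6e-08).

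Wnt5a, a Wnt ligand that often acts without β-catenin, differed widely among tumors. It lay between -0.60 and 6.82 in WntT (median 2.39), against 0.40 to 1.74 in WntH (median 1.40), with 19 tumors above every WntH array and 1 below. It was 2.69-fold higher (log2 difference 1.43, SE 0.57, adjusted p = 0.041), a call that was lost when any of 6 of the 7 WntH arrays was left out (adjusted p up to 0.090). Tnfrsf19, a receptor of the TNF family, had 3 clones that disagreed, 3.18-fold and 1.48-fold higher and, for the fat-rich one, 2.12-fold lower, and their mean gave a log2 difference of 0.38 (adjusted p = 0.012). This call was lost when arrays were centred on the Pan-epithelial genes (adjusted p = 0.32).

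Of 32 measured ligands, receptors and transducers of Wnt signals, 17 were higher in WntT and 4 lower, with a median difference of 0.36. The 4 lower genes (12.5%, against 22.2% of all genes) were all Frizzled receptors, Fzd4 (2.41-fold), Fzd6, Fzd8 and Fzd9. Fzd4 had a fat-rich clone, and the part of fat RNA in its fall was not tested. The higher genes included kinases, a phosphatase subunit and corepressors that serve many pathways. Ctnnb1, β-catenin itself, lay between -1.93 and 1.81 in WntT (median 0.90), against -3.97 to -0.70 in WntH (median -2.60), and was 9.26-fold higher on 1 clone (log2 difference 3.21, SE 0.44, adjusted p = 4.1e-07). WntH had the lowest mean of the groups for Ctnnb1, at -2.69, against -1.26 in VMG, -0.93 in Fat and 0.06 in NeuT. Apc, a scaffold of the complex that degrades β-catenin, was 2.97-fold higher (adjusted p = 4.4e-08), Ppp2r1a, a scaffold of phosphatase 2A, 4.63-fold (adjusted p = 3.9e-14), and Ctbp1 and Ctbp2, corepressors, 2.16-fold and 1.86-fold. Gsk3b, the kinase of that complex, was 1.79-fold higher over 5 clones (adjusted p = 5.3e-13), 4 of them called and ranging from 1.32-fold to 3.80-fold, with 1 at -0.15 and not called. Ppp2r1a and Gsk3b also averaged lower in WntH (-1.72 and -0.51) than in VMG (-0.57 and -0.32) and Fat (0.21 and -0.03). Ctbp2 went the other way, at 0.60 in WntH against 0.10 in VMG and -0.10 in Fat. Without the clones whose identifiers carry the number 20, described below with the single clones, 13 genes of this list were higher.

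Kit, the receptor of stem cell factor, lay between 1.76 and 3.46 in WntT (median 2.78), against 0.33 to 1.69 in WntH (median 0.82), without overlap. It was 3.67-fold higher on 1 clone (log2 difference 1.88, SE 0.18, adjusted p = 6.6e-10), and its means were 0.12 in VMG, 3.13 in NeuT and -3.32 in Fat (SD 3.86 in Fat). Its ligand Kitl was also higher (log2 difference 0.44). Of 34 growth factors and receptors, 14 were higher and 6 lower (41.18% and 17.65%, against 21.9% and 22.2% of all genes). The rises included Il17b (3.17-fold, adjusted p = 0.0038), Gfra1, a GDNF co-receptor (2.56-fold, adjusted p = 0.011), and Ngfr, the low-affinity neurotrophin receptor. Ngfr lay between -0.10 and 2.52 in WntT (median 1.05), against -0.49 to 0.49 in WntH (median -0.20), and was 2.20-fold higher (adjusted p = 0.00030), with clones at 3.18-fold and 1.52-fold. The falls were Fstl3, Igf1, Igfbp3 and Igfbp6, all fat-rich, and Egfr (1.53-fold) and Tgfbr2 (1.57-fold), which were not. Igf1, the insulin-like growth factor, was 4.06-fold lower (adjusted p = 1.1e-07), while its receptor Igf1r was higher (log2 difference 0.66). Igfbp3 lay between -1.06 and -0.49 in WntT (median -0.73), against 0.60 to 1.15 in WntH (median 0.73), a 2.83-fold difference (adjusted p = 1.6e-16). With the arrays centred on the Pan-epithelial genes 10 genes of the list were higher and 10 lower, and the median was -0.0031, against 0.20 as deposited.

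Many genes of the cell cycle rose. Of 33 genes of DNA replication, 23 were higher and 0 lower in WntT, with a median difference of 0.60, and of 31 genes of mitosis 21 were higher and 1, Spc25, was lower, with a median of 0.68. Mcm6, a subunit of the replicative helicase, lay between -1.78 and 0.97 in WntT (median 0.08), against -2.69 to -1.26 in WntH (median -1.99), and was 3.91-fold higher (adjusted p = 9.9e-07). Its partners Mcm2 (2.73-fold) and Mcm5 (2.57-fold) and the ligase Lig1 (2.51-fold, adjusted p = 3.7e-10) were higher as well. Kif20a, a kinesin of cytokinesis, lay between -1.05 and 1.29 in WntT (median 0.44), against -2.53 to -0.07 in WntH (median -1.56), and was 3.62-fold higher (adjusted p = 2.8e-06). Cdk1, the kinase that starts mitosis, lay between -1.18 and 1.28 in WntT (median 0.23), against -2.22 to -0.45 in WntH (median -1.33), and was 3.09-fold higher (adjusted p = 2.4e-06). Averaged over the mitosis list, WntT arrays spanned -0.35 to 0.69 and WntH arrays -0.82 to -0.01, with 16 of 23 WntT arrays above every WntH array, and WntH m5 was the highest gland. VMG lay lower, at -1.07 to -0.75, and NeuT at -0.14 to 0.30. In the G1 list of 11 genes, Ccnd1 and Ccnd2 were higher, the inhibitor Cdkn2d was higher (1.71-fold) and the inhibitor Cdkn2c lower (1.69-fold, adjusted p = 4.6e-06). Cdkn2c had a fat-rich clone, and its mean was 1.98 in Fat and 1.52 in VMG, against 0.85 in WntH. The part of fat RNA in the fall of Cdkn2c was not tested.

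The promoters of the mitosis genes that rose were searched for the letters CCAAT, the core of the site of the factor NF-Y, and TTTGAA, the core of the cell cycle homology element. Promoters of 19 of the 21 mitosis genes that rose were found in RefSeq (build GRCm38.p6), and the 250 bases before the first listed start were read on both strands. CCAAT was in 15 of the 19 (78.95%), against 33.85% of 32851 promoters of the same length, and TTTGAA in 9 (47.37%), against 15.99%. These are counts of letters and not of bound sites. The stretches below, written 5′ to 3′ on the strand of the gene, hold every match of a promoter, with each motif in capitals, on the other strand as ATTGG for CCAAT and as TTCAAA for TTTGAA. No match of one motif overlapped a match of the other. Cdk1 was chosen for the size of its rise, Ect2, Ckap5 and Depdc1a because both motifs lie within a short stretch, and Nek2 and Cks2 because they hold CCAAT alone.
Cdk1 (chr10:69352913-69353132, minus strand): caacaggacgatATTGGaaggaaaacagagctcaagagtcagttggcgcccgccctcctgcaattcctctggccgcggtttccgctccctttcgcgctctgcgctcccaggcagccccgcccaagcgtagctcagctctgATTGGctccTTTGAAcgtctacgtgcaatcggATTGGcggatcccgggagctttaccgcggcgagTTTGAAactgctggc
Ect2 (chr3:27153916-27154004, minus strand): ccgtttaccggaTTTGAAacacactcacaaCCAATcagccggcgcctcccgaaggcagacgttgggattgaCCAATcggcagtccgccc
Depdc1a (chr3:159495382-159495432, plus strand): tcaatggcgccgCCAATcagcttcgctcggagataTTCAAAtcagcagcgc
Ckap5 (chr2:91526705-91526744, plus strand): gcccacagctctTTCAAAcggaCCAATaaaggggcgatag
Cks2 (chr13:51645155-51645227, plus strand): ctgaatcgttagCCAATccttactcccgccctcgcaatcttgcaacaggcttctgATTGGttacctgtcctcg
Nek2 (chr1:191821435-191821464, plus strand): gtgttttctcagCCAATcagagttgagatg

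Counted from the start of transcription, the CCAAT boxes began at -208, -80 and -48 in Cdk1, at -96 and -55 in Ect2, at -39 in Depdc1a, at -35 in Ckap5, at -65 and -22 in Cks2, and at -26 in Nek2. TTTGAA began at -71 and -15 in Cdk1, -114 in Ect2, -16 in Depdc1a and -45 in Ckap5. Among the genes shown, Ect2, which controls the contractile ring of dividing cells, differed by 0.94, Depdc1a by 0.85, Ckap5, a microtubule polymerase, by 0.40, and Cks2, a partner of Cdk1, by 0.54 on the log2 scale. Nek2, a centrosome kinase, lay between -2.15 and 0.86 in WntT (median 0.22), against -2.31 to -0.19 in WntH (median -1.75), and was 2.63-fold higher (adjusted p = 0.00043).

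Most genes of the Myoepithelial and basal list rose. Of 13 Myoepithelial and basal genes, 8 were higher in WntT and 0 lower, with a median difference of 0.88, and 21 of 23 WntT arrays had a higher list mean than every WntH array. Besides Cnn2, Trim29 and Ngfr these were Itga6, the α6 integrin (1.84-fold, adjusted p = 4.7e-10), Cdh3, P-cadherin (1.90-fold, adjusted p = 3.2e-09), Igfbp5 (2.16-fold, adjusted p = 0.00083), Tgfb1i1 and Cnn1. Cnn1, the smooth muscle calponin of myoepithelium, lay between -0.60 and 1.90 in WntT (median 1.00), against -1.25 to 0.48 in WntH (median -0.34), and was 2.55-fold higher (adjusted p = 6.4e-05). The clones of Cdh3 disagreed, at 1.89 and -0.04, and the second was not called. Myh11, the smooth muscle myosin, differed by -0.02 and was not called. The lowest difference in the list was -0.55, also not called, and 4 of the 13 genes were fat-rich. Krt14, given above with the Pan-epithelial genes and not counted here, was not called either. Of 14 luminal genes, 4 were higher and 3 lower (28.6% and 21.4%, near the 21.9% and 22.2% of all genes), and the difference between the basal and luminal lists was not tested. Cldn7, a tight junction protein, was 1.69-fold higher (adjusted p = 2.2e-06) and Krt19 1.65-fold higher (adjusted p = 0.0013), whereas Cldn4, another claudin, was 1.76-fold lower (adjusted p = 3.6e-08) and Tspan8 2.05-fold lower (adjusted p = 0.00018). The estrogen receptor Esr1 (-0.17), Gata3 (0.44) and Elf5 (0.15) were not called.

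Of 16 milk genes, 4 were higher in WntT and 5 lower (25% and 31.3%, against 21.9% and 22.2% of all genes). The secreted milk proteins Wap (3.18-fold, adjusted p = 0.0046), Glycam1 (3.58-fold, adjusted p = 9.2e-05), Csn1s1, Csn1s2a and Csn1s2b were lower, and all but Csn1s1 and Csn1s2a lay far below the reference, which holds lactating gland, at means of -7.31 to -2.50 in WntT against -5.47 to -1.11 in WntH. The calls of Wap and Glycam1 were lost under quantile normalization (adjusted p = 0.063 and 0.090). Mfge8, a milk fat globule protein, was 1.69-fold higher (adjusted p = 5.8e-09) without overlap, and Cd24a, Lcn2 and Stat5a were higher too. The retinoid carrier Crabp2 was at 1.45 to 3.02 in WntT (median 2.21), against 0.24 to 1.19 in WntH (median 0.57), or 3.34-fold higher (adjusted p = 6.3e-10), and the receptor Rarg was 1.89-fold higher (adjusted p = 2.4e-06). Of 13 retinoid genes 3 were higher and 3 lower (23.1% each, near the shares of all genes), and the lower ones, Rarres1, Rarres2 and Aldh1a7, were all fat-rich. Of 12 genes of keratinizing epithelium 2 were higher, Sfn and Trim29, and 2 lower, Ppl and Krt13 (16.7% each, below the shares of all genes).

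Stromal genes fell in part. Of 35 fibroblast and matrix genes, 17 were lower and 6 higher (48.6% and 17.1%, against 22.2% and 21.9% of all genes). Lum, the collagen-binding proteoglycan lumican, lay between -1.51 and 1.25 in WntT (median -0.19), against 2.33 to 3.46 in WntH (median 3.01), and was 8.91-fold lower (adjusted p = 6.7e-12). Col3a1 was 3.90-fold lower (adjusted p = 1.1e-05) and Pdgfra, the receptor that marks fibroblasts, 2.75-fold lower over 4 clones (adjusted p = 3.4e-07). These lower genes were mostly fat-rich. Lum and Col3a1, however, averaged lower in Fat (2.635 and 1.91) than in WntH (2.93 and 2.32), and their means in NeuT were -1.41 and -1.15. In the opposite direction, Col11a1, a collagen of cartilage and of tumor stroma, lay between -3.71 and 2.90 in WntT (median 1.35), against -2.69 to -0.64 in WntH (median -1.68), and was 7.34-fold higher on 1 clone (adjusted p = 1.3e-05). Tnc, tenascin C, was 2.21-fold higher (adjusted p = 0.013), and Fmod, Col4a1, Col14a1 and Vcan completed the 6. Col1a1, with a difference of 1.37 (SE 0.68), was not called (adjusted p = 0.10).

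Of 23 endothelial genes 13 were lower and 3 higher, and the list mean was lower on all 23 WntT arrays, at -1.24 to -0.44, against -0.40 to -0.26 in WntH. Ramp2, a co-receptor of adrenomedullin, was 2.56-fold lower (adjusted p = 3.0e-12), Tek, the angiopoietin receptor, 1.85-fold lower (adjusted p = 1.3e-09), and Lyve1, a marker of lymphatic vessels, 3.72-fold lower (adjusted p = 2.9e-08). Eng, Plvap and Cldn5 were higher. Cdh5 (-0.26) and Flt1 (-0.22) were not called. The endothelial list mean was higher in Fat and VMG than in WntH, as was the Adipocyte list mean. Ramp2 and Tek were also higher there, but Lyve1 averaged higher in WntH (1.102) than in VMG (0.5697) and Fat (0.5408). Eng had its highest mean in Fat (-0.458) and was higher in WntT (-1.083) than in WntH (-2.195). The part of fat RNA in the endothelial falls was not tested.

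Immune genes were lower too. Of 27 lymphocyte genes 15 were lower and 0 higher, with a median difference of -0.60, and 21 of 23 WntT arrays had a list mean below every WntH array. Cd79b, a chain of the B cell receptor complex, lay between -3.79 and -1.76 in WntT (median -3.14), against -2.38 to -0.14 in WntH (median -1.47), and was 2.85-fold lower (adjusted p = 6.8e-05). Cd8a, the coreceptor of cytotoxic T cells, was 1.70-fold lower (adjusted p = 2.0e-07) and Ccr7, the receptor that guides cells to lymph nodes, 2.32-fold lower (adjusted p = 0.0015). Cd3e, on all T cells, differed by -0.07 and was not called. Of 21 macrophage and myeloid genes 10 were lower and 3 higher (47.6% and 14.3%, against 22.2% and 21.9% of all genes). Fcgr3 (2.72-fold), Folr2 (2.23-fold) and Ncf4 (8.17-fold) were lower and fat-rich, Tyrobp was lower and not fat-rich (1.69-fold, adjusted p = 0.00021), and Cd68, Cd14 and Cx3cr1 were higher. With arrays centred on the Pan-epithelial genes 11 myeloid genes were lower and 0 higher. Cma1, the chymase of connective tissue mast cells, lay between -3.85 and 0.72 in WntT (median -0.39), against 1.83 to 3.28 in WntH (median 2.84), and was 10.0-fold lower (adjusted p = 1.2e-08). The mast cell genes Hdc (-0.52, adjusted p = 0.071) and Tpsb2 (0.21, adjusted p = 0.47) were not called. Of 4 Schwann cell genes 1 was higher and 1 lower (25% each, against 21.9% and 22.2% of all genes). Mbp, the myelin basic protein, was 2.21-fold lower (adjusted p = 2.7e-05), Cnp was higher (log2 difference 0.31, adjusted p = 0.0019), and Sox10 and S100b were not called.

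More interferon-response genes were lower than higher. Of 26, 10 were lower in WntT and 2 higher (38.5% and 7.7%, against 22.2% and 21.9% of all genes). The 2 higher were Stat2 (1.56-fold, adjusted p = 1.1e-08) and Irf9, both transcription factors of the pathway. Ifi203, an interferon-induced DNA sensor, lay between -1.75 and -0.41 in WntT (median -1.07), against 0.54 to 1.06 in WntH (median 0.74), and was 3.59-fold lower over 2 clones (adjusted p = 3.1e-11). The chemokine Cxcl9 was 2.41-fold lower (adjusted p = 1.5e-09) and the GTPase Gbp2 2.63-fold lower (adjusted p = 1.4e-07). All 3 were fat-rich, with means in VMG of 0.36, 1.57 and 0.98, and the interferon list as a whole averaged -0.43 to -0.05 in Fat. Ifi203 averaged lower in Fat (0.52) than in WntH (0.73), and its fat-rich class rests on its low level in NeuT (-1.56). Cxcl9 and Gbp2 averaged 2.26 and 1.80 in Fat, against 0.74 and 0.52 in WntH.

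Genes of the mitochondrion and of protein synthesis separated as well. Of 22 respiratory chain genes 17 were lower and 0 higher, with a median difference of -0.60, and all 23 WntT arrays had a lower list mean than every WntH array. Ndufa5, a subunit of complex I, lay between -0.54 and 0.23 in WntT (median -0.11), against 0.47 to 1.20 in WntH (median 0.56), and was 1.83-fold lower (adjusted p = 4.6e-09). Ndufa1 was 1.67-fold lower with both clones called (adjusted p = 2.7e-08). Of 11 genes of fatty acid oxidation 6 were lower, among them Etfb (2.30-fold, adjusted p = 1.9e-11) and Decr1 (1.96-fold, adjusted p = 1.5e-12). None of the 17 respiratory genes was fat-rich, but the list was higher in VMG (0.62 to 0.96) and in Fat (0.23 to 0.58) than in WntT (-0.45 to 0.01). The part of fat and muscle RNA in it was not tested.

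Of 14 translation factors 9 were higher and 1, Eif5b, was lower, and all 23 WntT arrays had a higher list mean than every WntH array. Eif3b, a subunit of the complex that prepares the small ribosomal subunit, lay between 0.13 and 0.87 in WntT (median 0.53), against -0.53 to -0.11 in WntH (median -0.27), and was 1.71-fold higher (adjusted p = 1.0e-08). Eif3d was 3.18-fold higher (adjusted p = 3.2e-11) and Eef1a1, an elongation factor, 4.03-fold (adjusted p = 3.7e-08). Eif3d and Eef1a1 averaged lower in WntH (-1.28 and -1.53) than in VMG (-0.71 and -0.60) and Fat (-0.44 and -0.47). Eif3b did not, at -0.28 in WntH, -0.375 in VMG and -0.29 in Fat. Ribosomal protein genes did not follow, since of 19 only Rpl8 was higher (log2 difference 0.38) and Rps20 and Rps25 lower (1.15-fold and 1.22-fold), with a median of 0.00, or -0.21 with arrays centred on the Pan-epithelial genes. Of 12 genes of glycolysis and hypoxia 6 were higher and 3 lower (50% and 25%, against 21.9% and 22.2% of all genes). Egln3, an oxygen-sensing hydroxylase (2.72-fold, adjusted p = 2.0e-06), Car12 (2.72-fold, adjusted p = 2.5e-05) and Hk1 were higher, while Bnip3, Ndrg1 (1.49-fold, adjusted p = 9.1e-07) and Aldoa were lower. Egln3 and Car12 averaged 4.55 and 2.27 in NeuT, far above WntT at 1.89 and -0.27. Of 12 p53 targets 2 were higher, Phlda3 (1.96-fold) and Ei24 (2.24-fold), and 2 lower, Sesn1 and Ddb2. These shares, 16.7% each, were below the 21.9% and 22.2% of all genes.

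**Figure D5:**
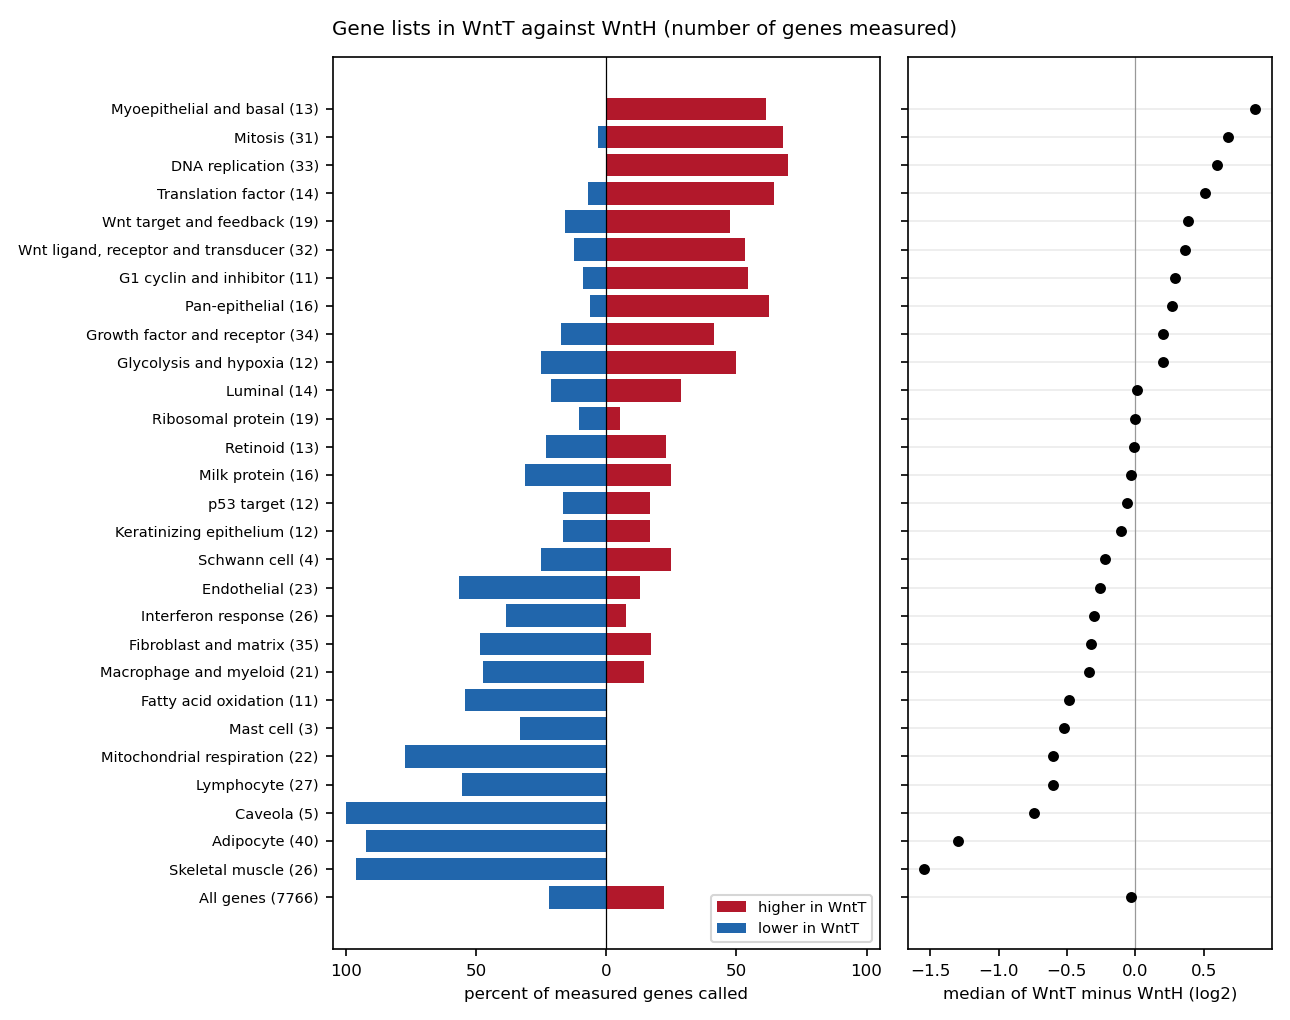
Left, the percent of measured genes of each list that were called higher (red, to the right) or lower (blue, to the left) in WntT than in WntH, with the number measured in parentheses and all 7766 genes at the bottom. Right, the median difference of each list in log2 units; it is highest for Myoepithelial and basal genes (0.88) and lowest for Skeletal muscle (-1.54).

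The list values above are differences as fitted, from which the median difference of -0.03 over all genes was not subtracted. Centring every array on its Pan-epithelial genes moved that median to -0.24, and of the called clones 1583 were then higher and 5822 lower, against 3085 and 3326 as deposited. On that scale 18 DNA replication genes were higher and 0 lower, 17 Mitosis genes higher and 2 lower, 8 Myoepithelial and basal genes higher and 2 lower, 13 Wnt ligand, receptor and transducer genes higher and 6 lower, and 7 Wnt targets higher and 3 lower. Each of these higher genes was also higher as deposited. The medians of the Luminal (-0.19), Ribosomal protein (-0.21), Growth factor and receptor (-0.0031) and Glycolysis and hypoxia (-0.0074) lists were below 0 there and above 0 as deposited.

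Other clones of the same gene often did not share the largest changes of single clones. The largest rises were those of Bhmt2 (20.3-fold), Anks1b (12.2-fold), a clone of Nckap1 (10.3-fold), Snorc (9.77-fold), Ctnnb1 (9.26-fold), Lin7c (8.27-fold), F7 (7.62-fold) and a clone of Kif22 (7.42-fold). The second clone of Nckap1, a protein of the actin-regulating WAVE complex, differed by 0.14 and was not called, and the other clones of Kif22, a chromosome-binding kinesin, differed by 0.70, 0.57 and -0.37. Bhmt2, an enzyme of methionine metabolism, lay between -8.24 and -0.20 in WntT (median -2.42), against -9.70 to -3.46 in WntH (median -8.29). Anks1b, an ankyrin repeat protein, lay between 2.32 and 8.01 in WntT (median 4.51), against -0.36 to 7.38 in WntH (median 0.27), and 4 of 23 tumors were above every WntH array. Snorc, a proteoglycan of cartilage, lay between -3.24 and 8.85 in WntT (median 2.79), against -1.07 to 2.09 in WntH (median 0.39).

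The largest falls included clones of Tmem33 (136-fold), Ano4 (117-fold), Ppp1r7 (111-fold), Sec22b (98.9-fold), Tmem167b (81.3-fold) and Hnrnph1 (72.2-fold), whose other clones gave differences between -0.87 and 0.88. Each of these falling clones was fat-rich or gland-rich. The fat-rich clone of Tmem33 averaged 5.19 in Fat, and the gland-rich clone of Ano4 averaged 4.53 in VMG and -5.34 in Fat. Nfatc2 (76.2-fold, fat-rich) and Mup9 (75.7-fold, gland-rich) had 1 clone each.

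Clone identifiers begin with a number from 1 to 40, and each number covers 384 clones. Of the 85 clones at least 3-fold higher, 20 carried the number 20 (5.21% of its clones, against 2.60% for the next, the number 23). The median difference per number lay between -0.22, for the number 27, and 0.20, for the number 1, and was below 0 for each number from 24 to 39. Of the 3-fold higher clones numbered 20, 9 belonged to a gene with another clone, and for 5 another clone was called the same way. For the other higher clones this held for 17 of 26, and for the lower clones for 92 of 134. The higher clones numbered 20 were also higher in VMG than in WntH by a median of 0.83, against 0.05 for the other higher clones. Among the genes described as higher, the only clones of Wnt5a, Ppp2r1a, Nek2, Ect2, Depdc1a, Tnc, Bhmt2, Snorc and F7 and some clones of Capn6, Gsk3b, Rcc2, Prpf8 and Nckap1 carried that number, and Nckap1 lost its call without it. Among those described as lower, some clones of Hjv, Smoc2, Col3a1, Pdgfra and Tmem33 did. Without these clones 21 DNA replication, 17 Mitosis and 13 Wnt ligand, receptor and transducer genes were called higher. The part of clone position in these results was not tested.

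Apod, apolipoprotein D, also differed widely among tumors, at -0.22 to 4.34 in WntT (median 0.82), against -0.16 to 0.76 in WntH (median 0.08). It was 2.77-fold higher on 1 clone (adjusted p = 0.037), with 12 of 23 tumors above every WntH array, and lost its call when any of 6 of the 7 WntH arrays was left out.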

How the data were processed

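RNA of mammary tissue (Cy5) was hybridized with a common mouse reference RNA (Cy3) to spotted cDNA arrays, and the authors deposited normalized log2 ratios of sample over reference, 1 column per array. Per the study's methods, arrays came from a single print and were read on a GenePix scanner with ArraySuite. Spot quality scores were not used here, so the authors' quality filter was not repeated. The table of the smaller array type was not used. The number of arrays limits the precision.

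Groups came from sample titles. The labels do not say that arrays of a group are separate animals, so p-values measure the spread between these samples, which may be technical. WntT minus WntH was fitted with limma 3.58.1 (lmFit, eBayes) in R 4.3.3 over all 15360 clones, and again over 7766 genes with clones averaged, with Benjamini-Hochberg adjustment at 0.05. No value was filtered. Fat-rich clones came from Fat minus NeuT, arrays outside the comparison. Promoter sequences came from RefSeq (GRCm38.p6). On simulated arrays with independent clones, few of them changed, the fit recovered 68.7% of 1.5-fold, 91.0% of 2-fold and 93.9% of 4-fold changes. In the real data 41.7% of clones were called, so the simulation does not measure error there. Genes were named by rule: 15 in each direction whose clones were all called 1 way, ranked by their smallest difference, with fat-rich and muscle genes ranked apart; the leading called genes of each list; genes the study discusses; and the largest single clones. Other list members were named after their values were seen. Members and lists were chosen with earlier results of these data known. Alternatives covered normalization, centring, extreme ratios, eBayes options, covariates, clone handling, left-out arrays and a permutation test modeled on the study's.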

Additional observations from a re-analysis of the deposited data

Results flagged for a closer look

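Each value here is a log2 ratio of sample to reference, and each item was singled out because 1 of the 7 WntH arrays lay far from the other 6. Of 163 named genes, 10 were singled out in this way, and chance does so in about 1 of 20 groups. WntH m14 was at 0.767 for Sult5a1, where the others lay between -0.363 and -0.0423, at 1.586 for Igfbp6 (others 0.974 to 1.199), at 1.149 for Igfbp3 (others 0.5998 to 0.8268) and at 7.378 for Anks1b (others -0.364 to 1.128). WntH m9 was at 1.027 for Ccnd1 (others -0.702 to -0.148) and at -0.697 for Ctnnb1 (others -3.97 to -2.58). WntH m5 was at 1.188 for Crabp2 (others 0.244 to 0.583), at 0.599 for Ndufa1 (others -0.0318 to 0.240) and at -0.309 for Etfb (others 0.206 to 0.528). WntH m11 was at -3.689 for Nckap1 (others -1.589 to -0.263).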

How the results depend on the processing

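The main limits are 7 WntH arrays, a difference in age and in fat and muscle RNA between the groups, and clones of a gene that often disagree. With the Adipocyte and muscle list means as covariates, which go with the group, 3107 clones were called, 2306 higher and 801 lower, and 1560 of them past 3-fold, 1237 higher and 323 lower, so that the balance past 3-fold turned toward higher clones. Averaging clones gave 3427 genes of 7766. Defining fat-rich clones by Fat minus VMG left 90. The count of called clones was 6332 with array medians centred, 6962 after quantile normalization, 7405 with Pan-epithelial centring, 6924 without WntT m42 and m49, and 4274 by the methods' permutation test at its own threshold. Leaving out 1 WntH array at a time (or, for fat-rich clones, 1 Fat array) gave 5799 to 6179 called clones, 354 to 395 past 3-fold, 326 to 355 agreeing genes and 986 to 1056 fat-rich clones. For the lists it gave 37 to 38 Adipocyte and 23 to 25 muscle genes lower, and 8 to 8 basal, 16 to 17 Wnt ligand, receptor and transducer, 21 to 24 DNA replication and 21 to 22 Mitosis genes higher. In the 12 settings run for single genes (scaling, wide arrays, each WntH array, clones numbered 20, the last with 155 genes), none of 163 named genes reversed, 150 kept their side of the threshold and 11 lost their call in some. The medians of the Luminal, Ribosomal protein, Growth factor and Glycolysis lists changed sign with Pan-epithelial centring, as given above. Besides those named above, Krt13 lost its call without WntH m7, m9, m10 or m11 (adjusted p up to 0.081), Rps20 without m5, m7, m10 or m15 (up to 0.16), Snorc without m5, m10 or m11 (up to 0.062), and Rpl8 and Cnp with Pan-epithelial centring (0.073 and 0.40). Hdc and Sox10 gained a call as lower with that centring (adjusted p = 0.026 and 0.016), and Sox10 also without WntH m7 (0.0095) or m5 (0.020). The cause was not tested. No paired analysis was possible because the WntT and WntH titles share no replicate numbers.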
